A study of Homo sapiens with 30 samples.

Results

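The genes described here are 59 genes of the long arm of chromosome 15, from NIPA1 near the centromere to IGF1R near the end of the arm, out of 61487 genes in the deposited table, and were followed across 30 RNA-seq libraries of eHAP FNLS cells. They were selected on their levels, which were higher in 1 monoclonal line of each of the SUGP1 genotypes, line 3 of SUGP1 E554K (clone A08_A03) and line 3 of SUGP1 G603N (clone A09_3.04), in both treatments, so their levels in those 2 lines are given as a description and were not tested. All 59 passed the filter on low counts.

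The eHAP line is a haploid human line derived from HAP1, itself from a chronic myeloid leukaemia line, and the FNLS cells used here carry the cytosine base editor FNLS. The series has 5 genotypes. The controls had a guide RNA without a target. The mutants were PHF5A 2xTL, which has 6 nt inserted in PHF5A, and the substitutions SF3B1 T1080I, SUGP1 E554K and SUGP1 G603N. Cells of every genotype received DMSO (the solvent) or pladienolide B (PB, 2 nM), which binds the spliceosome's SF3b complex, and were taken after 3 h, 3 libraries for each combination. The libraries of a mutant came from 3 independent monoclonal lines, and the same number under DMSO and PB marks the same line. The control libraries were 3 replicates of 1 line, so the spread in control is between cultures and the spread in a mutant is between clones.

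In a haploid cell each gene of an autosome is present once, and transcript levels of most genes follow the number of gene copies. HAP1 cells kept an extra piece of chromosome 15, and eHAP was derived by removing it. Chromosome 15q carries genes studied for their dosage, among them UBE3A, the ubiquitin ligase of Angelman syndrome, and the neighbouring CYFIP1, NIPA1, NIPA2 and TUBGCP5. Proteins made in excess of the other subunits of their complex are often degraded, which mRNA levels do not show. SUGP1 is a splicing factor with a G-patch domain and a partner of SF3B1, which like PHF5A belongs to SF3b.

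Library totals ran from 31592502 to 75037259 counts. Values are in counts per 1000000 counts (CPM) after scaling. The log2 difference of a library is its log2 CPM minus the mean of the 3 control libraries of the same treatment, and the value of a line is the mean of its DMSO and PB libraries. In bulk RNA a change in every cell and a change in part of the cells cannot be told apart. Mitochondrial genes took 15% (DMSO) and 17.9% (PB) of the counts in SUGP1 E554K line 3, 11.3 and 12.9% in SUGP1 G603N line 3 and 10.1 to 14.3% in the other 26 libraries, and the part of this difference in the results was not tested. No single gene defines eHAP cells. The 9 haematopoietic markers examined stayed at or below 0.873 CPM in every library. Of the mesenchymal markers VIM was between 193 and 386 CPM, COL1A1 between 3.15 and 20.7 CPM, and COL1A2 and PDGFRB at or below 1.29 CPM. Of the neural markers SOX2 was between 626 and 1180 CPM and NES between 32.4 and 153 CPM, with TUBB3 and RBFOX3 at or below 7.6 CPM. Of the epithelial markers KRT18 was between 18.4 and 68.3 CPM and KRT8 between 0.517 and 84.9 CPM, with EPCAM and CDH1 at or below 1.29 CPM. DNA copies were not analysed here.

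Together the 59 genes took 1.2 to 1.4% of the counts in the 4 libraries of the 2 lines and 0.695 to 0.815% in the other 26. The median log2 difference over the 59 genes was 0.55 in SUGP1 E554K line 3, a fold of 1.47, and 0.82 in SUGP1 G603N line 3, a fold of 1.77 (n = 2 libraries per line). In the other 10 mutant lines the median was between -0.18 and -0.02. By library it was 0.51 in DMSO and 0.55 in PB for SUGP1 E554K line 3, and 0.73 in DMSO and 0.85 in PB for SUGP1 G603N line 3. The 4 libraries stood together on the high side under both treatments.

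The number of the 59 genes above a log2 difference of 0.5 was 33 in SUGP1 E554K line 3, 52 in SUGP1 G603N line 3, 1 in SUGP1 G603N line 1 (TPM1) and 0 in the other 9 mutant lines. Beside these counts, 21.8% of all 31444 tested genes were above 0.5 in SUGP1 E554K line 3 and 17.1% in SUGP1 G603N line 3. The same share was 15.3, 12.7 and 14.3% in PHF5A 2xTL lines 1 to 3, 17.7, 14.3 and 11.2% in SF3B1 T1080I lines 1 to 3, 11.3 and 10.8% in SUGP1 E554K lines 1 and 2, and 12.1 and 15% in SUGP1 G603N lines 1 and 2. These shares include many genes of low counts. Among 10249 protein-coding genes of at least 4 CPM on other chromosomes, 4.08% were above 0.5 in SUGP1 E554K line 3 and 7.49% in SUGP1 G603N line 3.

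**Figure D1:**
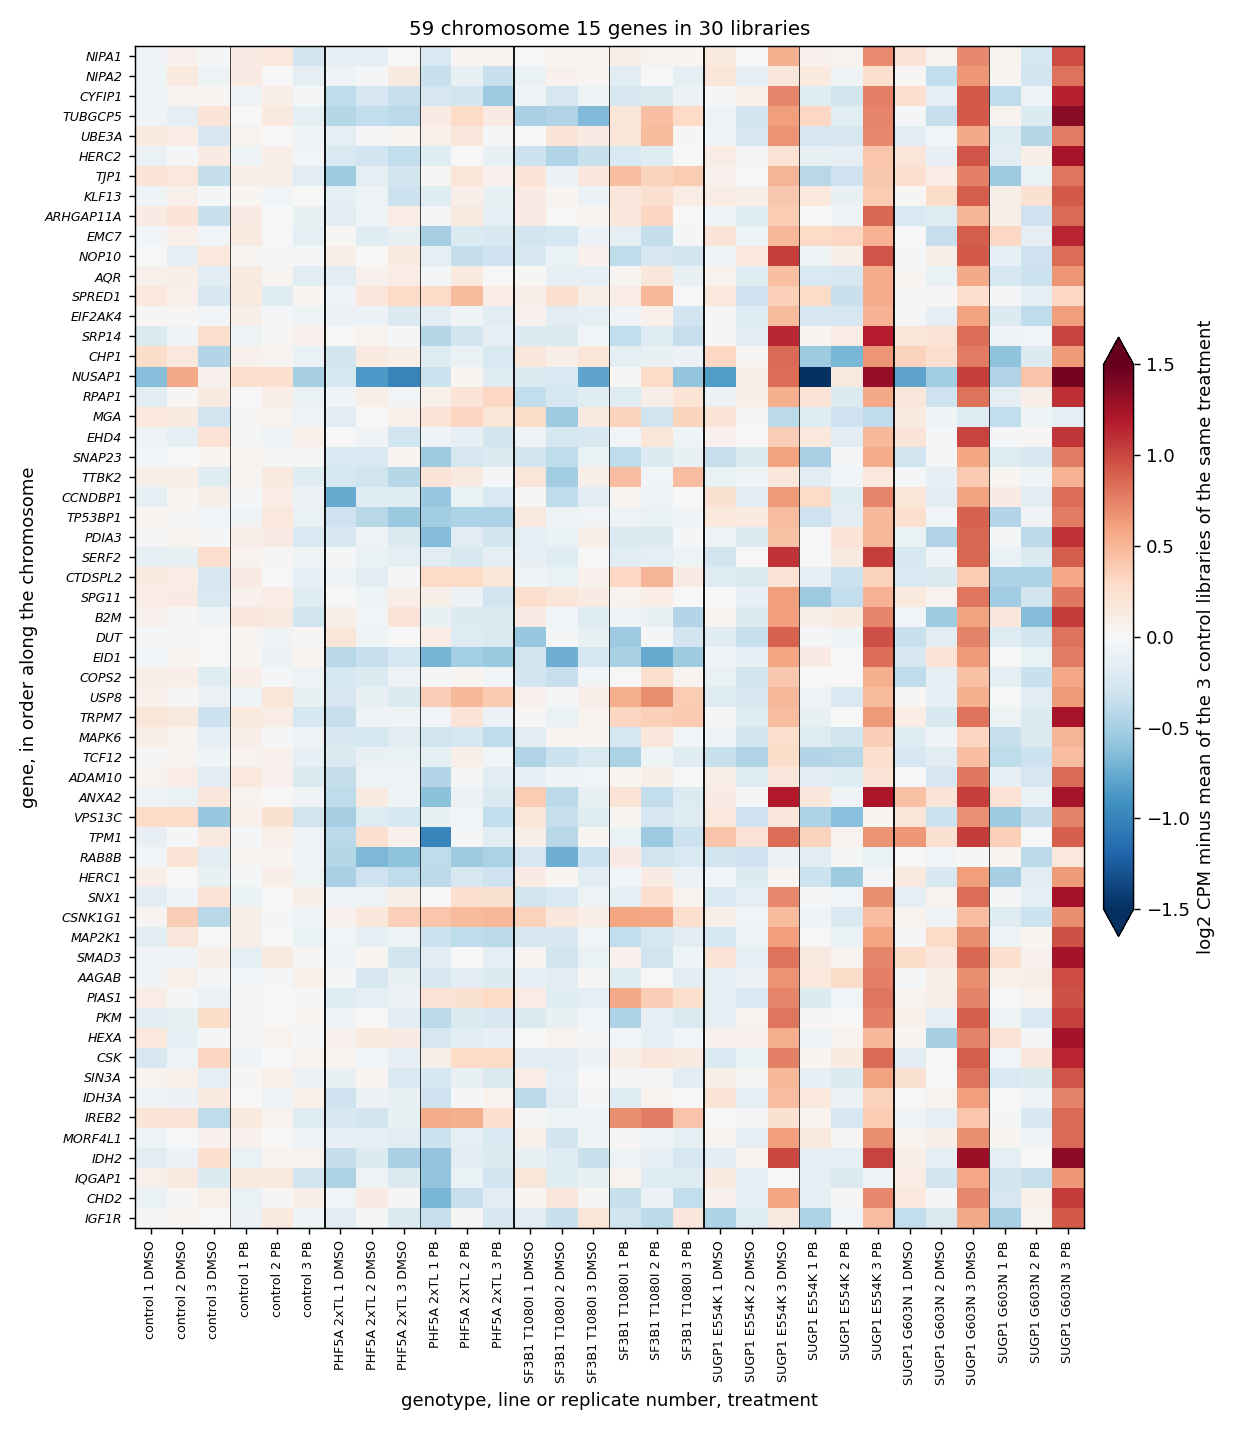
Log2 CPM of the 59 genes (rows, in order along the chromosome) in the 30 libraries (columns, by genotype, treatment and line number), minus the mean of the 3 control libraries of the same treatment; red is higher and blue lower than control, and colours are capped at 1.5. The 4 columns of SUGP1 E554K line 3 and SUGP1 G603N line 3 are red in most rows, with MGA and RAB8B as exceptions, and the other mutant columns have medians from -0.18 to 0.02.

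For 42 of the 59 genes, all 4 libraries of the 2 lines were above all 26 other libraries in CPM, against 1.08% of all tested genes. The same held for 180 of the 297 other protein-coding chromosome 15 genes of at least 4 CPM and for 43 of the 10249 genes on other chromosomes. In 28 of the 59, each of the 4 libraries was more than 0.5 above control. MGA, TCF12 and RAB8B reached 0.5 in none of the 4, although the 4 TCF12 libraries still lay above the other 26. Just above and below 0.5 in the mean of the 2 lines stood ADAM10 (0.51), a sheddase of membrane proteins such as Notch, and COPS2 (0.49), a subunit of the COP9 signalosome.

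The rest of chromosome 15 gave similar values. Over the 297 other genes the median log2 difference was 0.65 in SUGP1 E554K line 3 and 0.89 in SUGP1 G603N line 3, and 199 of the 297 (67%) were above 0.5 in both lines, against 32 of the 58 described genes that also have at least 4 CPM. Chromosome 15 had the highest median of the 23 nuclear chromosomes (1 to 22 and X) in both lines, 0.62 and 0.88. The highest of the other chromosomes reached 0.13 (chromosome 19) in SUGP1 E554K line 3 and 0.24 (chromosome 22) in SUGP1 G603N line 3. In the other 10 mutant lines the chromosome 15 median was between -0.14 and -0.02 and ranked 21 to 23 of 23. Of the other chromosomes, chromosome 21 reached the highest medians, 0.70 to 0.72, in PHF5A 2xTL lines 2 and 3, SUGP1 E554K line 1 and SUGP1 G603N line 1. It was at -0.38 to -0.18 in the other 8 mutant lines, which include the 2 lines with high chromosome 15 genes (-0.38 and -0.25). Chromosome 8 had the highest median in SF3B1 T1080I lines 1 and 2 (0.19 and 0.25).

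Chromosome 15 genes took 3.87 to 4% of all counts in the libraries of SUGP1 E554K line 3, 4.46 to 4.5% in those of SUGP1 G603N line 3, 2.5 to 2.61% in the 6 control libraries and 2.32 to 2.44% in the other 20 mutant libraries. These ranges did not overlap.

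**Figure D2:**
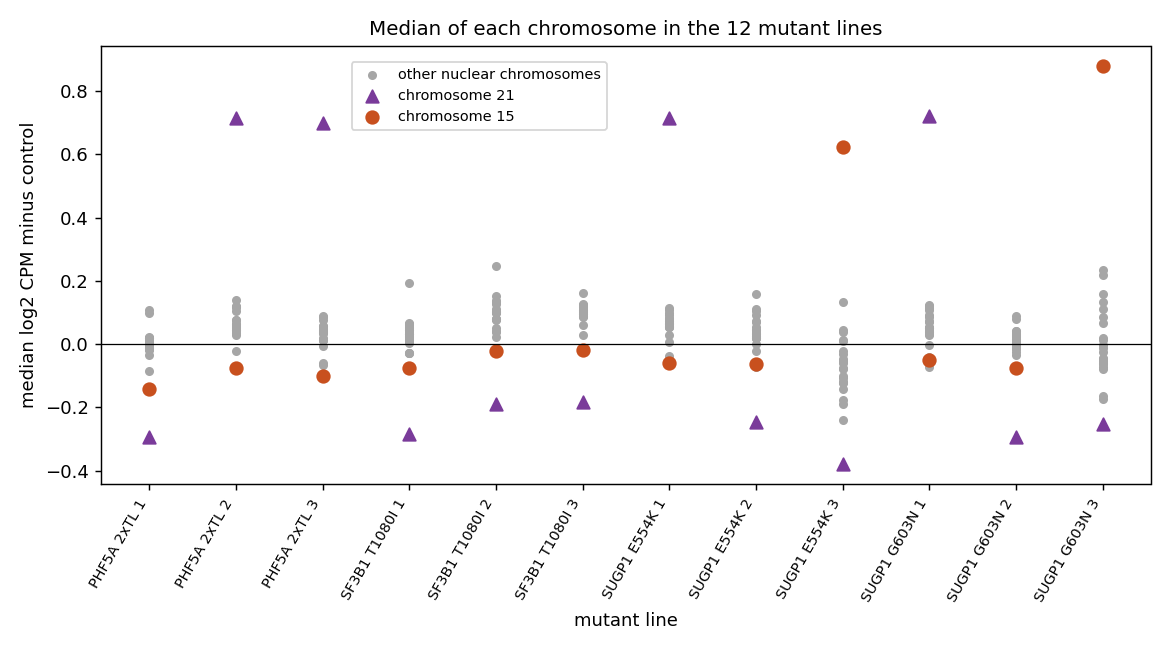
Median log2 difference from control (vertical axis) of the protein-coding genes of at least 4 CPM on each nuclear chromosome, for the 12 mutant lines (horizontal axis); circles in colour are chromosome 15, triangles chromosome 21 and grey points the others. Chromosome 15 is at 0.62 and 0.88 in line 3 of SUGP1 E554K and SUGP1 G603N and between -0.14 and -0.02 in the other 10 lines.

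The higher values ran along the whole arm. In stretches of 20 megabases (hg38), the 14 of the 59 genes between 20 and 40 megabases had medians of 0.50 (SUGP1 E554K line 3) and 0.81 (SUGP1 G603N line 3), and the 23 genes between 40 and 60 megabases had medians of 0.55 and 0.78. Between 60 and 80 megabases the 18 genes had medians of 0.63 and 0.85. The 4 genes beyond 80 megabases, IDH2, IQGAP1, CHD2 and IGF1R, had medians of 0.48 and 0.82, and the 76 other genes there 0.62 and 0.93. No stretch lay near 0 in either line.

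**Figure D3:**
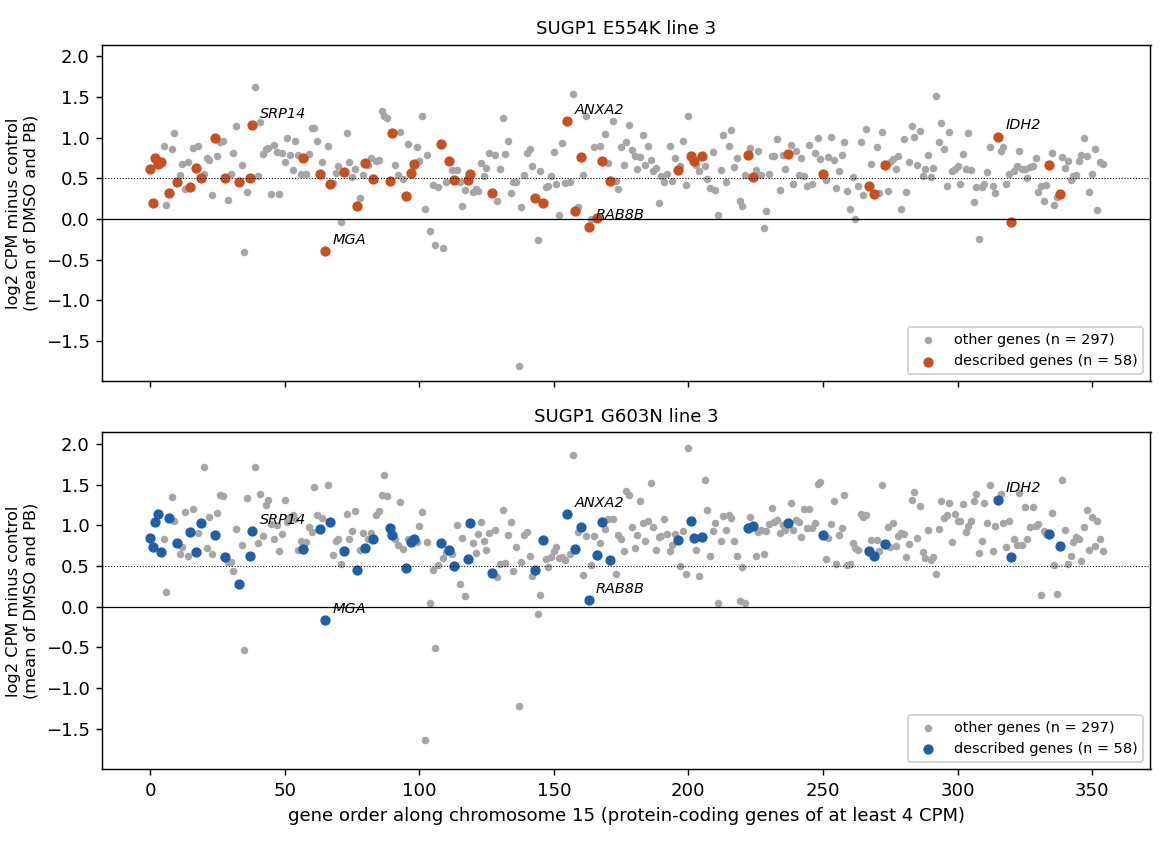
Log2 difference from control (vertical axis, mean of DMSO and PB) of 355 protein-coding chromosome 15 genes of at least 4 CPM in their order along the chromosome (horizontal axis), for each of the 2 lines; coloured points are 58 of the 59 genes (NUSAP1, at 1.61 CPM, is left out), grey points the 297 others, and the dotted line is 0.5. Points of both kinds lie mostly above 0 from one end to the other, with MGA and RAB8B low in both lines.

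Among genes of the proximal cluster at 15q11.2, CYFIP1 (ENSG00000273749), a subunit of the WAVE complex that drives actin branching, lies at chr15:22867052-22981063 on the minus strand (hg38). Its level was 218 CPM (DMSO) and 233 CPM (PB) in SUGP1 E554K line 3, 248 and 307 CPM in SUGP1 G603N line 3, and 94.5 to 156 CPM (median 122.9) in the other 26 libraries. The groups did not overlap, and the log2 differences of the lines were 0.75 and 1.04. NIPA1, a magnesium transporter, was at 74.4, 78.8, 85.1 and 94.7 CPM in the 4 libraries in the same order and at 39.4 to 59.7 CPM (median 50.6) elsewhere. Its neighbour NIPA2, also a magnesium transporter, had 61.7 and 70.9 CPM in SUGP1 E554K line 3, which overlapped the 42.4 to 66.6 CPM (median 55.3) of the others, and 86.3 and 106 CPM in SUGP1 G603N line 3, above them.

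Genes of protein targeting and folding at the endoplasmic reticulum differed from each other, with SRP14 high in both lines. In SUGP1 E554K line 3, PDIA3 (0.47 on the log2 scale) and EMC7 (0.51) lay below the median of the genes described here (0.55). In SUGP1 G603N line 3, PDIA3 (0.97) and EMC7 (1.03) lay above that median (0.82). SRP14, the signal recognition particle subunit that with SRP9 binds the Alu domain of 7SL RNA, was at 735 and 917 CPM in SUGP1 E554K line 3 and at 600.3 and 816 CPM in SUGP1 G603N line 3, against 289 to 437 CPM (median 343) in the other 26. All 4 values were above the others, and SRP14 was further from control in the E554K line (1.15) than in the G603N line (0.93). PDIA3, a disulfide isomerase that folds glycoproteins, was at 595 and 634 CPM and at 794 and 953 CPM, against 286 to 514 CPM (median 408), with no overlap. SERF2, listed beside these genes (1.06 and 0.88 on the log2 scale), was among the 5 genes with the highest mean of the 2 lines. EMC7, of the ER membrane protein complex, was at 0.51 and 1.03.

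Of the 3 genes of RNA processing and polymerase assembly, AQR, an RNA helicase of the spliceosome's intron-binding complex, was at 199 and 204 CPM in SUGP1 E554K line 3, at 215 and 220.2 CPM in SUGP1 G603N line 3 and at 111 to 157 CPM (median 137) elsewhere. NOP10, a core protein of H/ACA snoRNPs and telomerase, was at 187, 223, 174 and 207 CPM in the 4 libraries, against 77.4 to 124 CPM (median 96.6). RPAP1, which serves RNA polymerase II assembly, was at 109.9, 93.8, 133 and 136 CPM, against 54.9 to 84.9 CPM (median 67.7). None of the 3 overlapped between the sets of libraries.

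Annexin A2 (ANXA2), a calcium-dependent membrane-binding protein, had the highest mean over the 2 lines. Its level was 1190.2 and 1357 CPM in SUGP1 E554K line 3 and 1076 and 1382 CPM in SUGP1 G603N line 3, and 384 to 709 CPM (median 557) in the other libraries, and the folds over control were 2.30 and 2.20. Its 3 tested processed pseudogenes had 37 CPM in all, 5.75% of the level of ANXA2. TJP1, a scaffold of tight junctions, was at 228 and 169 CPM in SUGP1 E554K line 3 and at 272 and 222 CPM in SUGP1 G603N line 3, and its PB value in the first overlapped the 88.4 to 189 CPM (median 146) of the others. B2M, the light chain of MHC class I, was at 208, 239, 208 and 299 CPM, all above the other 26 (91.6 to 162 CPM, median 134). TPM1 (0.76 and 0.97), a tropomyosin, and ADAM10 (0.19 and 0.82) complete the cell surface and cytoskeleton genes.

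The metabolic genes included IDH2, the mitochondrial NADP-dependent isocitrate dehydrogenase, at 96.5 and 96.2 CPM in SUGP1 E554K line 3 and at 117 and 121 CPM in SUGP1 G603N line 3, against 31.6 to 56.9 CPM (median 43.1) elsewhere. IDH2 had the highest log2 difference of the 59 in SUGP1 G603N line 3, 1.32, and 1.01 in SUGP1 E554K line 3. Pyruvate kinase PKM, the last step of glycolysis, was at 2083 and 2362 CPM and at 2227 and 2851 CPM in the 2 lines, against 1018 to 1439 CPM (median 1194). IREB2, the iron-sensing RNA-binding protein IRP2, overlapped the other libraries (72.9 to 162 CPM, median 127), with 165 CPM in DMSO and 113 CPM in PB for SUGP1 E554K line 3 and 189 and 156 CPM for SUGP1 G603N line 3. IDH3A, the catalytic subunit of the NAD-dependent enzyme, was at 0.40 and 0.69 on the log2 scale.

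Among genes of mitosis and DNA precursors, DUT, which hydrolyses dUTP, was at 193 and 229 CPM in SUGP1 E554K line 3 and at 175 and 206 CPM in SUGP1 G603N line 3, against 70.9 to 127 CPM (median 103) elsewhere. ARHGAP11A, a GTPase-activating protein, was at 103, 132, 112 and 130.3 CPM, against 58.4 to 90.8 CPM (median 74.0). Neither overlapped. TTBK2, a tau-tubulin kinase of ciliogenesis, overlapped (44.8, 30.4, 52.1 and 39.3 CPM, against 23.9 to 45.1 CPM, median 31.8). NUSAP1, a spindle protein, was at 1.08 and 1.23 on the log2 scale, but from 2.98 to 3.95 CPM against 0.380 to 2.48 CPM, a level too low for a firm value, and it overlaps another tested gene model on the same strand with which it may share reads. TUBGCP5, of the gamma-tubulin ring complex, was at 0.68 and 1.14, and CCNDBP1, a cyclin D-binding protein, at 0.68 and 0.72.

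Of the 5 ubiquitin and signalosome genes, 1 was above 0.5 in SUGP1 E554K line 3 and 5 were in SUGP1 G603N line 3. UBE3A was at 304 and 291 CPM in SUGP1 E554K line 3, at 281 and 303 CPM in SUGP1 G603N line 3 and at 132 to 246 CPM (median 183) elsewhere, with no overlap. HERC2, a giant ubiquitin ligase of the DNA damage response, was at 196 and 194 CPM in SUGP1 E554K line 3, just above the 123 to 190.4 CPM (median 140.0) of the others, and at 322 and 343 CPM in SUGP1 G603N line 3. This gap of 0.77 on the log2 scale between the 2 lines was the widest of the 59 genes. HERC2 has 11 tested pseudogenes with 130 CPM in sum, so its share of the reads is uncertain. COPS2 was at 195, 187, 199 and 191 CPM, against 102 to 158 CPM (median 128). HERC1, a second giant ligase, was at 0.01 and 0.63 on the log2 scale, and USP8, an endosomal deubiquitinase, at 0.48 and 0.59.

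Of the 11 genes of transcription, chromatin and genome surveillance, 6 were above 0.5 in SUGP1 E554K line 3 and 8 in SUGP1 G603N line 3. MORF4L1 (MRG15), a reader of methylated histone H3, was at 449 and 496 CPM in the first line and at 476 and 548 CPM in the second, against 241 to 338 CPM (median 292). The E-protein TCF12 was at 238, 214, 268 and 249.7 CPM, against 131 to 202 CPM (median 167), so that its groups did not overlap although its log2 differences were 0.26 and 0.46. EID1, an inhibitor of the acetyltransferase p300, was at 238, 341, 246 and 324 CPM, against 95.5 to 207 CPM (median 141). The TGF-beta effector SMAD3 was at 0.78 and 1.06, the corepressor scaffold SIN3A at 0.55 and 0.88, the remodeller CHD2 at 0.66 and 0.89, TP53BP1, a factor of double-strand break repair, at 0.49 and 0.83, KLF13 at 0.39 and 0.91, and the SUMO ligase PIAS1 at 0.77 and 0.85.

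MGA, a MAX-binding repressor of E-box and T-box genes, was the lowest of the 59. It was at 111 CPM (DMSO) and 96.3 CPM (PB) in SUGP1 E554K line 3, at 129 and 115 CPM in SUGP1 G603N line 3 and at 97.6 to 178 CPM (median 144) in the other 26 libraries. Its log2 differences were -0.40 and -0.16, within the -0.42 to 0.30 of the other 10 mutant lines. The nearest protein-coding genes of at least 4 CPM around MGA at chr15:41621224-41773081 were higher in both lines: RPAP1 at 0.55 and 0.96, TYRO3 at 0.70 and 1.09, MAPKBP1 at 0.89 and 1.5 and EHD4 at 0.43 and 1.04. RAB8B, a small GTPase of membrane traffic, was at -0.10 and 0.08, with 36.3, 32.5, 39.0 and 38.9 CPM in the 4 libraries and 23.2 to 44.3 CPM (median 31.2) elsewhere. In the other 10 mutant lines RAB8B was between -0.60 and 0.02. Its neighbours were higher in most cases (LACTB 0.54 and 0.39, RPS27L 1.27 and 0.87, USP3 0.89 and 0.87), while APH1B was at 0.00 and 0.52.

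Promoter sequence is shown for 4 of the genes, because they moved in one direction over a whole chromosome except for a few such as MGA. The windows are the 250 bases before a RefSeq start (GRCh38.p14), taken as the 2 highest and 2 lowest genes by the mean of the 2 lines among the 10 whose window overlaps no annotated exon. MGA at chr15:41620974-41621223 (plus strand) and HERC1 at chr15:63833949-63834198 (minus strand) are the low ones, and SMAD3 at chr15:67065352-67065601 (plus strand) and CSK at chr15:74788294-74788543 (plus strand) the high ones. Each reads 5′ to 3′ in the direction of the gene, and capitals mark 3 motifs searched on both strands, the GC box with the letters GGGCGG, the box named for its letters CCAAT and the TATA box with the letters TATAAA. Overlapping matches run together.
MGA: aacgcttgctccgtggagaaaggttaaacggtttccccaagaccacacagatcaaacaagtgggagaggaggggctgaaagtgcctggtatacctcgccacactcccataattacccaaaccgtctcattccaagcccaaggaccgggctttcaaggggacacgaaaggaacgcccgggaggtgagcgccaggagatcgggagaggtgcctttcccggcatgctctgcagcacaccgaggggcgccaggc
HERC1: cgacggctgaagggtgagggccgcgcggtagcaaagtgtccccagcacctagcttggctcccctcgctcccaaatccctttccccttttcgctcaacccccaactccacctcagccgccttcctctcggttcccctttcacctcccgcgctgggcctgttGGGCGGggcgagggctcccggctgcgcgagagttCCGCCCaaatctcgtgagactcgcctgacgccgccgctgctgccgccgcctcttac
SMAD3: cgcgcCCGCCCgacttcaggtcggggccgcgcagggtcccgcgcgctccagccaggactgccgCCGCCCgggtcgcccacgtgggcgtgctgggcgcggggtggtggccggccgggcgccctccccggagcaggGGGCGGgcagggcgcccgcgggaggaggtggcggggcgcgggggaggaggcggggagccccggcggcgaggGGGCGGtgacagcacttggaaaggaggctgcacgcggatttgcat
CSK: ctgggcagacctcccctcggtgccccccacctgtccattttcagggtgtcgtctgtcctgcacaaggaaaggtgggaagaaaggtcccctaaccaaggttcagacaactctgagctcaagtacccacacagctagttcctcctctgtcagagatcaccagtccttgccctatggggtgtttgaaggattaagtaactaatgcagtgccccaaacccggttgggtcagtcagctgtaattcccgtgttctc

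In the windows shown, MGA, low in both lines, and CSK, high in both, held none of the 3 motifs, HERC1 held 2 GC boxes and SMAD3 held 4. The CSK and SMAD3 windows lie inside the genes as annotated, which begin at chr15:74782057 and chr15:67063763 on the plus strand. They precede a later start, and the sequence before the first annotated start of CSK and of SMAD3 is not shown. Over the 54 of the 59 genes with a RefSeq window, 36 (66.7%) held a GC box, against 42.1% of 878 other chromosome 15 genes and 42.3% of all 27305 genes, most of which are not selected for expression. A CCAAT box was in 20 of the 54 (37%) and in 33% of all windows, and a TATA box in 4 (7.41%) and in 11.1% of all. A match is only a run of letters.

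Kinases, receptors and signalling genes held the third of the low values. IQGAP1, a scaffold of actin and MAP kinase signalling, was at 328 and 314 CPM in SUGP1 E554K line 3, inside the 220.1 to 370.2 CPM (median 296) of the other libraries, and at 487 and 520.3 CPM in SUGP1 G603N line 3, above them. MAPK6 (ERK3) was at 188, 213, 195 and 235 CPM, against 127 to 186 CPM (median 142), and EIF2AK4 (GCN2), the kinase that senses uncharged tRNA, at 198, 205, 217 and 221 CPM, against 109.9 to 151 CPM (median 134). In those 2 genes the sets did not overlap. The others ranged from 0.31 (IGF1R) to 0.80 (CSK) in SUGP1 E554K line 3 and from 0.28 (SPRED1) to 1.03 (TRPM7) in SUGP1 G603N line 3.

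Of the genes of membrane traffic and the lysosome, SNX1, a retromer sorting nexin, was at 160 and 129.9 CPM in SUGP1 E554K line 3 and at 174 and 189.9 CPM in SUGP1 G603N line 3, against 72.0 to 113 CPM (median 86.2). VPS13C, a lipid transfer protein, was at 92.3 and 76.1 CPM in the first line, within the 48.5 to 100.1 CPM (median 67.0) of the others, and at 132 and 125 CPM in the second, above them. SPG11, which serves lysosome re-formation, was at 102, 101, 116 and 122 CPM, against 48.4 to 79.8 CPM (median 69.9). The lysosomal enzyme gene HEXA was at 0.51 and 1.00 and AAGAB at 0.71 and 0.84.

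The 2 lines differed from each other gene by gene. Of the 59 genes, 50 were further above control in SUGP1 G603N line 3, by a median of 0.22, and the 9 exceptions were UBE3A, NOP10, SPRED1, SRP14, CHP1, SERF2, DUT, EID1 and ANXA2. Across the 59 genes, which are not independent replicates, Spearman's rank correlation of the log2 differences between the DMSO and PB libraries of a line was 0.88 in SUGP1 E554K line 3 and 0.78 in SUGP1 G603N line 3.

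Transcript length moved with the values in SUGP1 E554K line 3, and also in some lines without high chromosome 15 genes. The rank correlation of length with the log2 difference in SUGP1 E554K line 3 was -0.43 over the 59 genes and -0.36 over 10249 genes on other chromosomes. The 2 values were -0.12 and -0.18 in SUGP1 G603N line 3, -0.29 and -0.27 in SUGP1 E554K line 2, and -0.28 and -0.33 in control replicate 3. The sign was opposite in SF3B1 T1080I line 1 (0.46 and 0.22) and control replicate 2 (0.33 and 0.37). The median of off-chromosome genes in the same of 10 length classes was then taken away, a step chosen after seeing the data. With it the median of the 59 was 0.72 in SUGP1 E554K line 3 and 0.81 in SUGP1 G603N line 3, with 47 and 54 genes above 0.5. The share of all tested genes above 0.5 after this step was not computed. MGA stayed the lowest, at -0.16 and -0.08. HERC1 (0.25), VPS13C (0.34) and IQGAP1 (0.17) remained under 0.5 in SUGP1 E554K line 3.

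For 14 of the genes, 56 tested genes of the same complex or pathway that lie on other chromosomes were listed as partners. Subunits on chromosome 15 itself were not among them, such as EMC4 (0.72 and 1.1) of the complex of EMC7 and TUBGCP4 (0.75 and 0.90) of that of TUBGCP5. The partners were near control, with a median of -0.02 in SUGP1 E554K line 3 and 0.01 in SUGP1 G603N line 3, and 1 and 3 of the 56 were above 0.5. The chromosome 15 member was above the median of its partners in 14 of 14 complexes in both lines, and in 0 to 4 of 14 in the other 10 mutant lines. The choice of the genes as high in these 2 lines made the first count likely in advance. In the other 10 lines the median of chromosome 15 as a whole was below 0. These counts are therefore only a description. SRP14 (1.15 and 0.93) stood beside SRP9 (-0.05 and -0.24) and SRP54 (-0.18 and -0.29). NOP10 (0.99 and 0.88) stood beside DKC1 (-0.02 and 0.04) and NHP2 (0.10 and 0.02), and CYFIP1 (0.75 and 1.04) beside NCKAP1 (-0.51 and -0.34) and ABI1 (-0.17 and -0.23). SMAD3 (0.78 and 1.06) was far above SMAD2 (-0.20 and -0.21) and SMAD4 (-0.17 and -0.26). In SUGP1 E554K line 3, IDH3G (0.44) was above IDH3A (0.40) and EMC9 (0.55) above EMC7 (0.51). In SUGP1 G603N line 3, IDH3G (0.50) was below IDH3A (0.69) and EMC9 (0.42) below EMC7 (1.03).

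**Figure D4:**
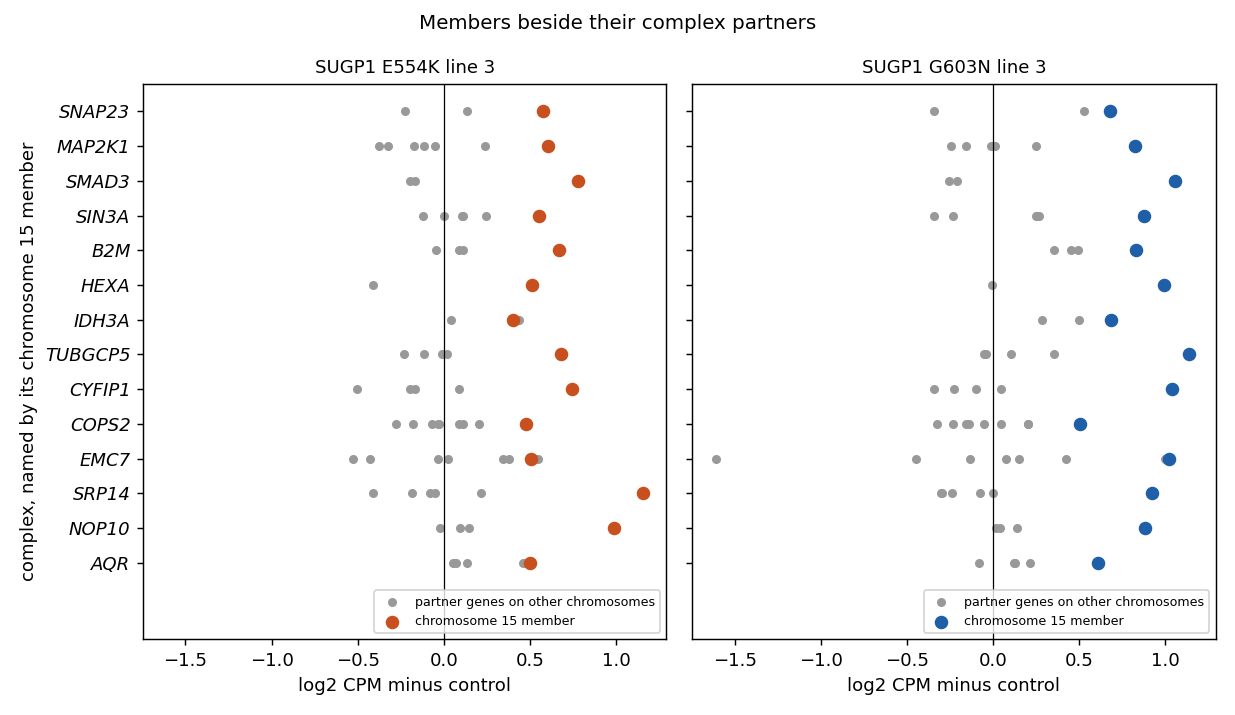
Log2 difference from control (horizontal axis) of 14 chromosome 15 genes (large points) and their 56 complex or pathway partners on other chromosomes (grey points), 1 row per complex, in the 2 lines. The partners centre on -0.02 and 0.01, and each large point lies above the median of its row.

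Comparisons other than the one used to choose the genes were tested with edgeR over all genes. The tests of PB in the SUGP1 genotypes, and of its difference from control, still include the libraries of the 2 chosen lines. In the fit of all 30 libraries every group shared 1 spread per gene, including the 2 lines on which the genes were chosen. The median standard error of the 59 was 0.24 for PHF5A 2xTL and SF3B1 T1080I against control. It was 0.13 in both SUGP1 comparisons without line 3. Calls among the 59 were thus harder to reach in the fit of all libraries, also for PB where libraries were not paired. In DMSO, 0 of the 59 genes passed the test against control in PHF5A 2xTL (0.00954% of all genes called; 1 of the 59 at an unadjusted p under 0.05, and 0 called by DESeq2) or in SF3B1 T1080I (0% of all genes; 1 at an unadjusted p under 0.05, and 0 by DESeq2). The unadjusted gene in both was RAB8B, lower by 0.58 ± 0.14 (SE) in PHF5A 2xTL, edgeR adjusted p = 0.4503, and by 0.43 ± 0.14 in SF3B1 T1080I, edgeR adjusted p = 0.9326. The medians of the 59 were -0.12 and -0.08, against -0.01 and 0.00 over all tested genes.

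The same held in the SUGP1 lines that were not used to choose the genes. Without line 3 of both genotypes, 0 of the 59 passed the test between the remaining 2 lines of SUGP1 E554K and control in DMSO (0% of all 33009 genes; 1 of the 59 at an unadjusted p under 0.05, and 0 by DESeq2), and 0 in SUGP1 G603N (0.757% of all genes; 1 at an unadjusted p under 0.05, and 0 by DESeq2). The medians were -0.07 and -0.03 on the log2 scale, and the highest values 0.33 and 0.46. With all 3 lines, where the choice of genes sets the direction, the medians were 0.17 and 0.25 and are only described.

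With PB, IREB2, TUBGCP5, TTBK2, USP8 and PIAS1 were lower in control and in both SUGP1 genotypes once libraries were paired. Mutant libraries were paired by line and control libraries by replicate number, a pairing that the labels do not state. Without regard to which line a library came from, 1 of the 59 was called in control (4.44% of all genes), 1 in SUGP1 E554K (4.39%) and 0 in SUGP1 G603N (3.85%; 6 at an unadjusted p under 0.05 and 0 by DESeq2), and the called gene was IREB2. Each of the IREB2 calls without a block was lost when any of 5 of the 6 libraries compared was left out. Without line 3 of both SUGP1 genotypes 7, 7 and 6 of the 59 were called in control, SUGP1 E554K and SUGP1 G603N. The shares of all genes called in that fit are not given here. With the line or replicate number as a block, which pairs each PB library with its DMSO partner, 10 were called in control (2 higher and 8 lower, 9.84% of all genes), 17 in SUGP1 E554K (7 higher and 10 lower, 11.9%) and 11 in SUGP1 G603N (2 higher and 9 lower, 9.43%). In PHF5A 2xTL and SF3B1 T1080I none of the 59 was called in either fit (0.00318% of all genes in both without the block, and 0.00318 and 0.0159% with it; 0 by DESeq2 in both). At an unadjusted p under 0.05 there were 0 and 0 without the block and 3 and 0 with it. The called shares of the 59 with the block were 16.9% in control, 28.8% in SUGP1 E554K and 18.6% in SUGP1 G603N, and their median standard error in control was 0.10 against 0.46 over all tested genes, many of which have low counts.

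These 5 genes fell in all 3 of control, SUGP1 E554K and SUGP1 G603N with the block. IREB2 in control was at 161, 162 and 109 CPM in DMSO and at 95.9, 90.2 and 75.9 CPM in PB, and it fell by 0.71 ± 0.11 (SE) on the log2 scale (edgeR with block, adjusted p = 4.082e-05, lower in 3 of 3 pairs). In SUGP1 E554K it was at 143, 138 and 165 CPM in DMSO and at 90.3, 72.9 and 113 CPM in PB, with no overlap, and fell by 0.71 ± 0.11 (edgeR with block, adjusted p = 4.182e-05, 3 of 3 pairs). In SUGP1 G603N it was at 137, 128 and 189 CPM in DMSO and at 86.2, 73.3 and 156 CPM in PB, where line 3 in PB overlapped the DMSO values of lines 1 and 2, and fell by 0.58 ± 0.11 (edgeR with block, adjusted p = 0.0005689, 3 of 3 pairs). Line 3 was thus high before and after PB, and the pairs moved in one direction.

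TUBGCP5 was the most strongly lowered of the 59 in control, from 38.0, 35.5 and 45.0 CPM in DMSO to 21.9, 24.5 and 20 CPM in PB, a fall by 0.83 ± 0.11 on the log2 scale (edgeR with block, adjusted p = 1.102e-05, 3 of 3 pairs). In the SUGP1 genotypes TUBGCP5 fell by 0.62 (E554K) and 0.61 (G603N). TTBK2 fell by 0.55, 0.57 and 0.46 in the 3 genotypes in that order, USP8 by 0.48, 0.43 and 0.47, and PIAS1 by 0.37, 0.31 and 0.33. TJP1 fell in the SUGP1 genotypes (0.63 and 0.64 lower) and missed the threshold in control (0.33 lower, edgeR with block, adjusted p = 0.0542). Among genes that rose were EID1 in both SUGP1 genotypes, NOP10 in control and SUGP1 E554K, and HEXA in SUGP1 G603N. In all, 22 of the 59 were called in at least 1 of the 3 genotypes and 11 in 2 or more. The matching shares of all genes were not computed, so these counts are only a description. By genotype, 9.84% (control), 11.9% (SUGP1 E554K) and 9.43% (SUGP1 G603N) of all genes were called. Among the 11 were MGA and CSNK1G1, lower in both SUGP1 genotypes, and CTDSPL2, lower in control and SUGP1 G603N. The remaining 11 were called in 1 genotype: CSK and TRPM7 lower and TPM1 higher in control, VPS13C and HERC1 lower and SRP14, DUT, AAGAB, SERF2 and CHD2 higher in SUGP1 E554K, and HEXA higher in SUGP1 G603N.

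**Figure D5:**
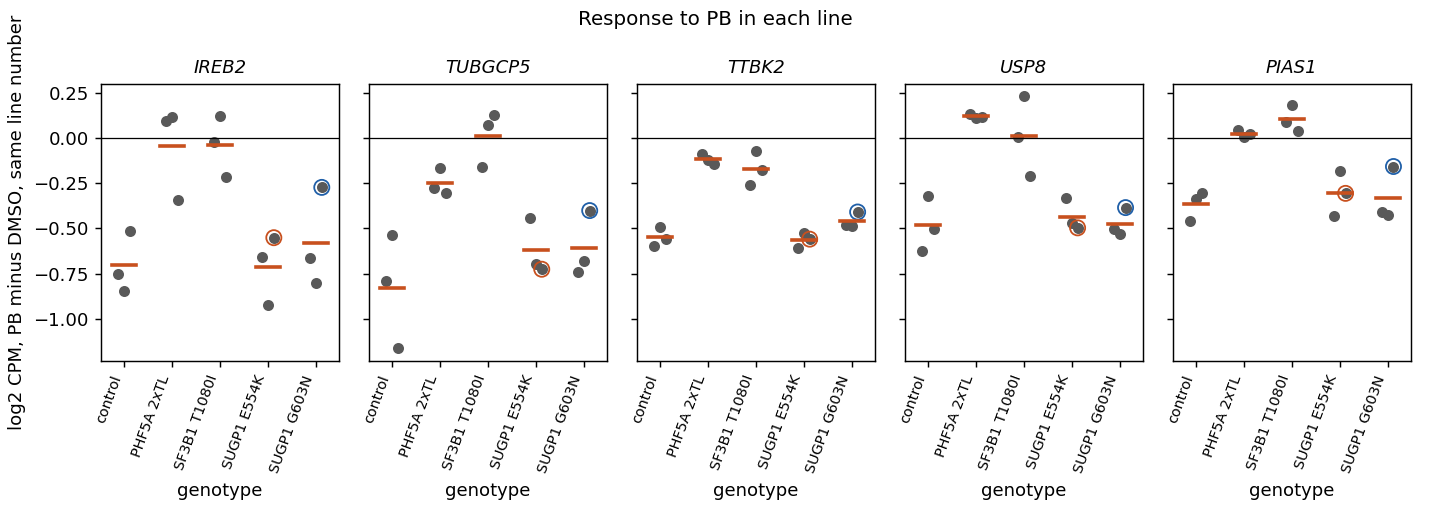
Log2 CPM in PB minus DMSO of the same line or replicate number (vertical axis) for 5 genes in the 5 genotypes (horizontal axis); each point is 1 pair, bars are means of 3 pairs, and rings mark line 3 of SUGP1 E554K and of SUGP1 G603N. All 9 pairs of control, SUGP1 E554K and SUGP1 G603N lie below 0 for each gene. The ringed line of SUGP1 E554K lies among or near its other lines. The ringed line of SUGP1 G603N has the smallest fall of its genotype for each gene, as in IREB2 (-0.27, against -0.66 and -0.80).

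No difference in the response to PB between either SUGP1 genotype and control passed the test in any of the 59 genes (0% of all genes called for SUGP1 E554K and 0% for SUGP1 G603N, with and without the block, and 0 of the 59 by DESeq2). At an unadjusted p under 0.05 there were 0 and 0 of the 59 without the block and 1 and 3 with it. CHP1, a calcineurin-like calcium-binding protein, had the lowest unadjusted p in both, with a response 0.58 ± 0.18 lower in SUGP1 E554K and 0.51 ± 0.18 lower in SUGP1 G603N than in control. Both had an edgeR adjusted p of 1. For the other 2 genotypes the difference from control in the response was tested after the data were seen. Without the block 0 of the 59 were called in PHF5A 2xTL (0.274% of all genes) and 0 in SF3B1 T1080I (0.321%), with 2 and 1 at an unadjusted p under 0.05. With the block 2 were called in PHF5A 2xTL (1.7% of all genes) and 4 in SF3B1 T1080I (1.9%), each with a higher response than in control. These were IREB2 (0.67 higher) and USP8 (0.61) in PHF5A 2xTL, and TUBGCP5 (0.85), IREB2 (0.67), USP8 (0.49) and PIAS1 (0.47) in SF3B1 T1080I. Within the 2 lines with high chromosome 15 genes, the 5 genes that fell with PB moved from DMSO to PB by -0.55 (IREB2), -0.73 (TUBGCP5), -0.56 (TTBK2), -0.50 (USP8) and -0.31 (PIAS1) in SUGP1 E554K line 3, and by -0.27, -0.40, -0.41, -0.38 and -0.16 in SUGP1 G603N line 3, the latter being the smallest fall of the 3 SUGP1 G603N lines for each gene.

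The counts do not separate all of these genes from their surroundings. Of the 59, 44 overlap another tested gene, 39 of them on the opposite strand, and the strand setting of the counting was not given in the sources used here. In addition, 15 have tested pseudogenes.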

How the data were processed

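RNA was measured in 30 libraries (10 groups of 3). Per the labels' protocols, polyadenylated RNA was selected and read paired-end. The tools named in the submitters' processing notes are STAR, SAMtools 1.10 and UMI-tools, and the build is hg38. Neither the counting program nor its annotation and strand setting is given in the sources used. The authors deposited estimated counts per gene, not normalized (65.5% of values above 0 are not whole), for 61487 genes, of which 61369 had a symbol. Totals were 31592502 to 75037259, so values of genes under a few CPM are imprecise. Gene length and coordinates come from the deposited length column and GENCODE release 29.

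Counts were rounded, filtered with filterByExpr (31444 genes kept, 33009 without the 4 libraries of the 2 lines), scaled by TMM and tested with edgeR 4.0.16 (R 4.3.3, limma 3.58.1) quasi-likelihood models, with Benjamini-Hochberg adjustment over all tested genes and calls under 0.05. DESeq2 1.42.0 was an alternative. Log2 CPM used a prior count of 2. Standard errors come from the F value and are approximate. Scripts were tested on simulated data. Promoters are from RefSeq. P-values rest on 1 spread per gene, shared by all groups in a fit. That spread mixes differences between clones in the mutants with differences between cultures of 1 line in control. With the line or replicate number as a block it is the spread of the PB change between pairs, also shared over the genotypes.

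Same-numbered mutant libraries are the same clone per the labels. In control the labels do not state a pairing. Deviations of same-numbered control libraries correlated at 0.453, 0.124 and 0.481 over 10604 genes, and replicate 2 correlated better (0.243) with another number. Pairing control libraries by number is therefore an assumption of the block.

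Genes given in full were up to 3 per role by mean CPM, the 5 highest and 5 lowest over the 2 lines, those called in a test and those nearest 0.5. The genes, lists and tests were chosen with earlier results of these data known. Alternatives were other scalings, filters, reference levels, left-out replicates, the block and fits of the compared groups only.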

Additional observations from a re-analysis of the deposited data

Results flagged for a closer look

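For 3 of the 59 genes, all lines of a genotype moved with PB in the opposite direction to all 3 control replicates. Each mutant genotype was examined for each gene. The share of all tested genes with such a pattern was not computed, so this count is only a description. PIAS1 was lower with PB in control (mean log2 difference -0.37) and slightly higher in PHF5A 2xTL (0.03), a difference of 0.39, and in SF3B1 T1080I (0.11), a difference of 0.47. USP8 was lower in control (-0.48) and higher in PHF5A 2xTL (0.12), a difference of 0.61. SPG11, a lysosomal protein of hereditary spastic paraplegia, was slightly higher with PB in control (0.09) and lower in SUGP1 E554K (-0.21), a difference of -0.30, with an edgeR adjusted p of 1 with the replicate block and 0.9999 without. The tests of the PIAS1 and USP8 differences were added after seeing the data. With the replicate block, edgeR gave an adjusted p of 0.1282 for PIAS1 in PHF5A 2xTL, 0.04355 for PIAS1 in SF3B1 T1080I and 0.01074 for USP8 in PHF5A 2xTL, where 533 (PHF5A 2xTL) and 597 (SF3B1 T1080I) of all genes were called. Without the block the edgeR adjusted p values were 1, 0.9999 and 0.7331, and 86 and 101 of all genes were called. USP8 in SF3B1 T1080I, whose lines did not all move oppositely to control, had a difference of 0.49 (edgeR adjusted p = 0.04151 with the block and 0.8875 without).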

How the results depend on the processing

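The median of the 59 genes in SUGP1 E554K line 3 was 0.50 to 0.58 over other scalings, reference levels, prior counts, single treatments and left-out control replicates, and 0.72 (0.7169) with the length adjustment. In SUGP1 G603N line 3 it was 0.77 to 0.85 over the same alternatives except DMSO alone, which gave 0.73. Both lines stayed above the other 10 mutant lines in all 10 alternatives.

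The number of the 59 genes called for PB depended on how the spread was estimated. Shares of all genes called are given above only for the main fit and for the replicate block. For the other settings the counts do not show whether the 59 differed from all genes. With line 3 of both SUGP1 genotypes left out of the fit, 7 were called in control, 7 in SUGP1 E554K and 6 in SUGP1 G603N. With the replicate block, 10, 17 and 11 were called. With only the 2 groups compared, 5 were called in control, 0 in SUGP1 E554K and 0 in SUGP1 G603N, and DESeq2 called 1, 2 and 0. Leaving out 1 library at a time gave 0 to 1, 0 to 2 and 0 to 6. The 6 came without the PB library of SUGP1 G603N line 3, and the call of IREB2 was lost without any of 5 of the 6 libraries in control (edgeR adjusted p from 0.07389 to 0.218) and in SUGP1 E554K (0.07385 to 0.2499). Over the left-out libraries, PIAS1 in SUGP1 E554K without a block ran from -0.68 to 0.015, where the last value, of reversed sign, lacks the DMSO library of line 3. Counts for mutant against control and for the SUGP1 differences in response stayed at 0 under each alternative run. For the differences in response of PHF5A 2xTL and SF3B1 T1080I, tested after the data were seen, the block raised the counts from 0 and 0 to 2 and 4.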
